A study of Homo sapiens with 6 samples.

Results

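FLG, HRNR, LCE1E, LCE3D, LCE3E, ABCA12 and LY6D, genes that belong to the outer layers of skin and other stratified epithelia, were followed in A549, a cell line grown from a human lung adenocarcinoma. The 7 genes were selected by symbol from a deposited table of 4546 genes, and their place in that table rests on the contrast described here: the authors kept genes whose level differed between the groups, and these were then picked from the genes that were higher. Their fold changes are therefore a description, and no test of them is given. One group, the solvent control, received DMSO diluted 1 in 1000, and the other received mitoxantrone at 50 nM, an antitumour drug that traps topoisomerase II on DNA. Exposure lasted 48 hours in both, with 3 libraries of total RNA per group, all from A549 with no genetic change named. The labels do not say whether the libraries of a group came from separate cultures, so their spread may be technical.

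The cornified envelope is the cross-linked protein shell that replaces the plasma membrane of a keratinocyte as it dies at the skin surface. Filaggrin and hornerin (FLG, HRNR) are long repeat proteins of the S100-fused family that bind or line the keratin network, and the late cornified envelope (LCE) proteins are small cysteine-rich building blocks of the shell. These genes sit side by side in the epidermal differentiation complex of chromosome 1. ABCA12 is a transporter that loads lipids into lamellar granules for the barrier between cells, and LY6D is a GPI-anchored surface protein of the LY6/uPAR family, found in squamous epithelium. A549 cells come from a glandular, not a squamous, lung tumour. Epithelial genes of the line were listed, among them KRT8 at a mean of 63454 normalized counts (reads divided by a size factor per library) with DMSO and 137470 with mitoxantrone. Of 22 lung epithelial markers 4 were listed, KRT8, KRT19 and CDH1 as higher and MUC5AC as lower, and the surfactant genes were not listed.

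Stretches of promoter are shown for the 4 minus-strand genes of chromosome 1, since these lie close together and were higher together. Each is the 150 bases before the RefSeq start, read 5′ to 3′ on the strand of the gene, from GRCh38.p14. FLG is at chr1:152325240-152325389, HRNR at chr1:152224194-152224343, LCE3D at chr1:152580517-152580666 and LCE3E at chr1:152566781-152566930. Capitals mark ATAAAA as read on this strand and, on either strand, TGANTCA, a form of the AP-1 motif.
FLG: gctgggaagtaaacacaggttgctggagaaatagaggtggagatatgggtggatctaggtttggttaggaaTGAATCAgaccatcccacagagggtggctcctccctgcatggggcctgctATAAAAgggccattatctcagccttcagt
HRNR: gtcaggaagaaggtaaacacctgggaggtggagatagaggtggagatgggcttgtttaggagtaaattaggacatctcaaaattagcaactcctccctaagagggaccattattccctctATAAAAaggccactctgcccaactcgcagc
LCE3D: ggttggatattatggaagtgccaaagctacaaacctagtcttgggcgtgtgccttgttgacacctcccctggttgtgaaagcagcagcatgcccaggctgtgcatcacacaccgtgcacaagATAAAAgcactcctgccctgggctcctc
LCE3E: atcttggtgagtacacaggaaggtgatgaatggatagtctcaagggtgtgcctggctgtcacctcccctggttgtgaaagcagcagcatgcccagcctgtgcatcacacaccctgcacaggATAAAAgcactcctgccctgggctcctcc

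The stretches of LCE3D and LCE3E were 78.2% identical over 156 aligned columns, and those of FLG and HRNR 59.5% over 163. ATAAAA began 29 bases before the start in FLG and LCE3E, 30 in HRNR and 28 in LCE3D and LCE1E. This position was looked at after the sequences had been seen, and 1.6% of 34788 RefSeq promoters hold ATAAAA on their own strand between 25 and 35 bases before the start. In FLG and HRNR the match overlaps TATAAA, which begins 1 base earlier. TGANTCA was found once, in FLG, 79 bases before the start, and 6.59% of all promoters hold it on either strand in their 250 bases. The p53 half-site occurred once each in HRNR, LCE1E and 1 of the 2 ABCA12 promoters, against 5.59% of all promoters. AACCGGTT, the motif of Grainyhead-like factors, was in none of the promoters searched and in 0.115% of all. RefSeq promoters were matched for 6 of the 7 genes, and a letter match is not evidence that a factor binds.

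All 7 genes were higher with mitoxantrone, from 11.3-fold (HRNR) to 52.1-fold (LY6D) in the 5 genes with reads in both groups. Among all listed genes 58.9% were higher and 41.1% lower. In each of the 7 every mitoxantrone library lay above every DMSO library, which held for 57.5% of listed genes, and for 98.3% when either direction is counted. Since the genes were chosen for being higher, these counts add nothing on their own. Summed over the 7 genes, the DMSO libraries held 99, 86 and 93 reads and the mitoxantrone libraries 1737, 1617 and 1765. In normalized counts the sums were 79.9 to 84.9 with DMSO and 1801 to 2101 with mitoxantrone, and FLG and ABCA12 made up 77.5% to 80.2% of the reads with mitoxantrone. In bulk RNA a rise in few cells and a smaller rise in all cells cannot be told apart.

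**Figure D1:**
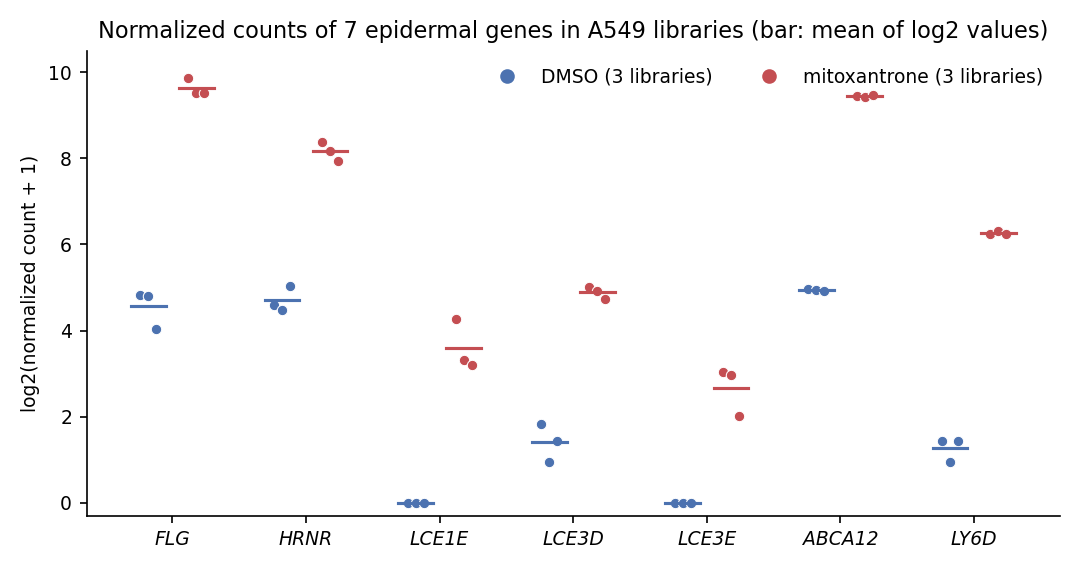
Each point is 1 library, with the gene on the horizontal axis and log2(normalized count + 1) on the vertical axis, blue for DMSO and red for mitoxantrone, and a bar at the mean of the log2 values. No gene has overlapping groups, and LCE1E and LCE3E sit at 0 in all 3 DMSO libraries.

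FLG (ENSG00000143631), the filaggrin gene, had normalized counts of 27.4, 26.9 and 15.5 in the DMSO libraries and 936, 729 and 735 in the mitoxantrone libraries. DMSO 3 was the low library of its group and mitoxantrone 1 the high one of its own. The means were 23.3 ± 6.74 and 800.0 ± 118 (SD, n = 3 libraries per group), a 34.3-fold difference, and the fitted log2 fold change was 5.10 ± 0.15 (SE), or 4.87 without DMSO 3. The deposited table places the gene on the minus strand of chromosome 1, 152274651 to 152297679, with no build named. These are not the coordinates of GENCODE 29 (GRCh38), but the deposited length of 12747 bases equals the exon bases of FLG there, in 3 exons.

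HRNR (ENSG00000197915), the hornerin gene, lies on the same strand at 152184558 to 152196669 and had the smallest fold of the genes with reads in both groups. Its normalized counts were 23.1, 21.4 and 31.9 with DMSO and 333, 288 and 246 with mitoxantrone. DMSO 3, the low library for FLG, was the high one for HRNR. The means were 25.5 ± 5.64 and 288.8 ± 43.4, 11.3-fold apart, with a log2 fold change of 3.49 ± 0.17.

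Relative to gene length, FLG was above HRNR in every mitoxantrone library and below it in every DMSO library. In DMSO 1 and DMSO 2 the difference was small. The ratio of FLG to HRNR reads per base was 0.895, 0.952 and 0.367 in the DMSO libraries and 2.125, 1.91 and 2.255 in the mitoxantrone libraries. This ratio is taken within a library, so no scaling between libraries enters it, and its groups did not overlap. The low value of DMSO 3 rests on 18 reads of FLG and 37 of HRNR.

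An antisense RNA, FLG-AS1, runs across FLG, HRNR and FLG2 on the plus strand, and it was higher as well. It had 3, 5 and 7 reads in the DMSO libraries and 111, 136 and 144 in the mitoxantrone libraries, with a log2 fold change of 5.0 ± 0.27. By GENCODE 29 its exons share 704 bases with the exons of FLG, 5.52% of the latter, and none with those of HRNR. The sources used here do not say whether counting used strand, so reads over the shared bases could belong to either gene. FLG had between 2.57 and 10.7 times the reads of FLG-AS1 in the DMSO libraries and between 4.75 and 6.97 times in the mitoxantrone libraries. Both repeat genes also hold repeated sequence. Of 50-base windows, 17.5% of those of the FLG transcript and 32.2% of those of HRNR repeat an earlier window of the same transcript. The first copy of each repeated window is not counted in these shares. No window of either gene occurs in a transcript of the LCE genes or FLG2 or in the other of the pair.

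The LCE genes had few reads. LCE3D (ENSG00000163202; 152551857 to 152552980, minus strand) had 3, 1 and 2 reads with DMSO and 26, 26 and 25 with mitoxantrone, or 1.74 ± 0.82 and 28.8 ± 3.02 normalized counts. The scaled ratio of its summed reads was 16.2, with an exact 95% interval of 7.12 to 45.6 that covers counting error only. The fitted log2 fold change was 3.93 ± 0.50, or 4.29 without DMSO 1 and 3.66 without DMSO 2.

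LCE1E (ENSG00000186226; 152758690 to 152760902, plus strand) had 0 reads in every DMSO library and 15, 8 and 8 with mitoxantrone. Against a floor of 3 reads over the DMSO group, which is what a count of 0 allows, it was at least 13.1-fold higher. LCE3E (ENSG00000185966; 152538130 to 152539248, minus strand) also had 0 reads with DMSO and had 6, 6 and 3 with mitoxantrone. It was 6.32-fold above the same floor, and the exact lower limit with counting error was 4.53-fold. In the authors' deposited table the log2 fold changes of LCE1E and LCE3E are 3.21 and 2.27, against 3.26 for LCE3D.

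LCE3D and LCE3E are near copies of each other, 12.6 kb apart in the deposited table. Their transcripts are 92.2% identical in GENCODE 29, over 616 aligned columns. Of the 100-base windows of LCE3E 5.47% occur in the transcript of another LCE gene, and of the 50-base windows 14.1%. How reads that match several places were treated is not stated, so the split of reads between LCE3D and LCE3E is uncertain. For LCE1E the shares were 0% and 9.2%.

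ABCA12 (ENSG00000144452), the lipid transporter gene, showed the most even levels of the 7. Its normalized counts were 30.0, 29.7 and 29.3 with DMSO and 700.4, 685 and 709 with mitoxantrone. Neither group had a library that stood out. The means were 29.7 ± 0.35 and 698 ± 12.1, 23.5-fold apart, with a log2 fold change of 4.55 ± 0.13. It lies on chromosome 2, 215796266 to 216003151 on the minus strand as deposited, with 54 exons by GENCODE 29, of which 58 exon bases, 0.616%, are shared with an antisense gene that is not listed.

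LY6D (ENSG00000167656), the surface protein gene on chromosome 8, had 2, 1 and 2 reads with DMSO and 62, 69 and 73 with mitoxantrone. The normalized counts with mitoxantrone were 75.0, 77.9 and 74.5, a narrow range, and with DMSO 1.71, 0.93 and 1.72. The means were 1.46 ± 0.46 and 75.8 ± 1.84, and the scaled ratio of summed reads was 51.6, with an exact 95% interval of 21.7 to 160.5 for counting error. By GENCODE 29 an antisense gene that is not listed covers 13.9% of its exon bases.

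The levels were low even where the folds were large. In FPKM (fragments scaled to gene length and library size, as deposited), the order with mitoxantrone was ABCA12 (3.69 to 3.81), FLG (2.90 to 3.64), LY6D (2.39 to 2.54), LCE3D (2.11 to 2.54), HRNR (1.29 to 1.71), LCE3E (0.25 to 0.59) and LCE1E (0.32 to 0.69). LY6D and LCE3D overlapped, and so did LCE3E and LCE1E, while the other neighbours in this order did not. With DMSO the order was ABCA12 (0.17 in each library), LCE3D (0.08 to 0.22), HRNR (0.12 to 0.18), FLG (0.07 to 0.12) and LY6D (0.03 to 0.06), with LCE1E and LCE3E listed at 0. There ABCA12 overlapped LCE3D, LCE3D overlapped HRNR, and HRNR met FLG at 0.12, between libraries and in rounded FPKM. Ranked by mean FPKM among the 4546 listed genes with mitoxantrone, ABCA12 was at the 72.3rd percentile, FLG at the 69.2nd and LCE1E at the 33.6th. With DMSO, ABCA12 was at the 27.0th and FLG at the 21.2nd.

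**Figure D2:**
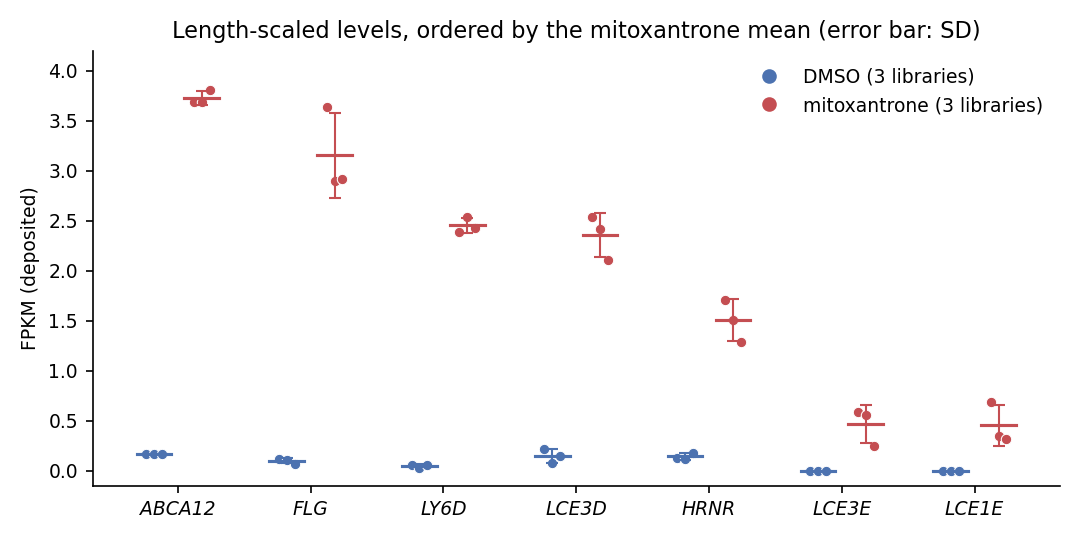
Deposited FPKM on a linear vertical axis for each of the 7 genes on the horizontal axis, ordered by the mitoxantrone mean, with points for libraries, a bar at the mean and an error bar of 1 SD (n = 3 per group). ABCA12 and FLG are the highest with mitoxantrone, LCE3E and LCE1E stay under 0.70, and all DMSO values are at or under 0.22.

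The spread between libraries of a group differed from gene to gene. With mitoxantrone the coefficient of variation was 14.8% for FLG and 15.03% for HRNR, where counting error alone gives 3.74% and 6.23%. For ABCA12 it was 1.73%, under the 4.004% of counting error, and for LY6D 2.425% against 12.15%. For LCE3D it was 10.48% against 19.73% and for LCE3E 40.31% against 44.33%, so their order of libraries lay within counting error. For LCE1E it was 46.95% against 30.83%, on 15, 8 and 8 reads. The library mitoxantrone 1 was the highest of its group in the 5 of the 7 genes that lie on chromosome 1, at 117% of the group mean for FLG, 115% for HRNR, 109% for LCE3D, 154% for LCE1E and 127% for LCE3E. It was at 100.3% for ABCA12, 99.0% for LY6D and 92.7% for FLG-AS1. Other listed genes of the same region were mixed in this. Mitoxantrone 1 was also the highest for FLG2 (normalized counts of 12.1, 10.2 and 9.18), S100A11, S100A6 and S100A4. LCE1F had normalized counts of 6.05, 10.2 and 5.10 in the mitoxantrone libraries and S100A10 16226, 16568 and 16185, both highest in mitoxantrone 2. NBPF18P, BX470102.3 and FLG-AS1 were highest there too, and S100A1 was highest in mitoxantrone 3. Mitoxantrone 1 also had the smallest library total, 16681380 reads against 17491982 to 21781220 in the others, and the part of depth in these values was not tested. Without it the log2 fold change was 4.97 for FLG and 3.38 for HRNR.

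**Figure D3:**
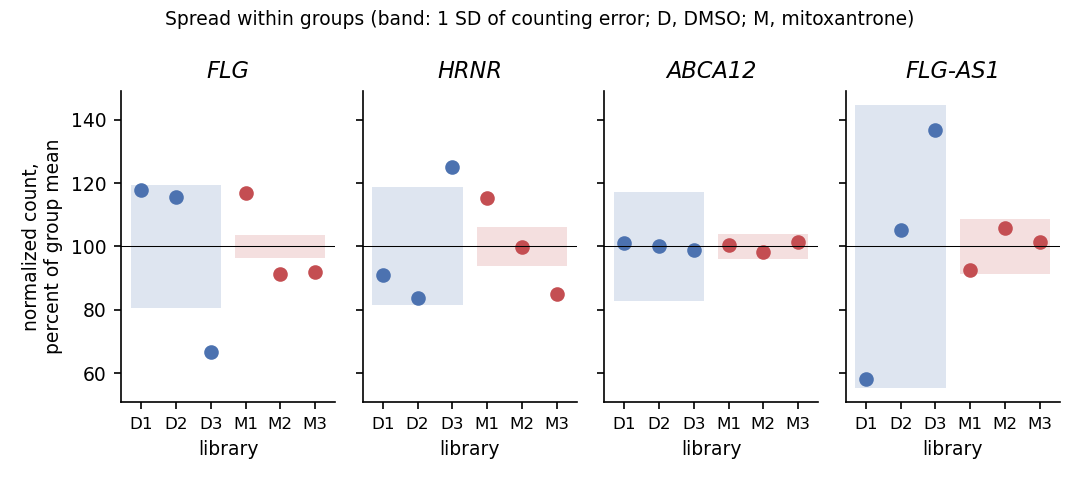
Normalized counts as a percent of the group mean (vertical axis) in each library (horizontal axis; D, DMSO and M, mitoxantrone) for FLG, HRNR, ABCA12 and FLG-AS1, with bands of 1 SD of counting error. ABCA12 stays inside its bands, while with mitoxantrone FLG and HRNR have libraries outside them, with M1 the highest for these genes.

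The other genes of the epidermal differentiation complex were set beside the 5 that belong to it. Of 46 genes in the list (the S100-fused, LCE and SPRR families, loricrin, involucrin and neighbours) 7 were listed, and 5 of these are the genes chosen for being higher, so no count or median over the list is read. The listed genes outside that choice were FLG2, filaggrin 2, and LCE1F. FLG2 had 1, 0 and 0 reads with DMSO and 10, 9 and 9 with mitoxantrone, a ratio of summed reads with an exact 95% interval of 5.85 to 1447. LCE1F, 9.24 kb from LCE1E, had 1, 0 and 0 reads with DMSO and 5, 9 and 5 with mitoxantrone, with an interval of 3.82 to 998. The other 39, involucrin, loricrin and all SPRR genes among them, were not listed, which does not mean unchanged.

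S100 genes, which encode small calcium-binding proteins and flank these families, were higher by less. For these and the lists that follow, rose and fell mean an edgeR adjusted p (quasi-likelihood F-test) of at most 0.05, a call that 100% of listed genes pass, 58.9% as higher and 41.1% as lower. Of 17 S100 genes 5 were listed and all 5 rose, with a median log2 fold change of 1.31, against 1.20 over all listed genes and 1.865 over the higher ones. S100A4 rose 4.52-fold, from 2445 ± 209 to 11063 ± 572 normalized counts, S100A10, the annexin A2 partner, 2.97-fold and S100A6 2.21-fold. S100A11, a substrate of envelope cross-linking, rose 2.08-fold to 9898 ± 496, and S100A1 2.49-fold to 29.9. Between S100A10 and S100A1, 1649 kb in the deposited table, 15 genes were listed, of which 14 were higher (93.3%, against 58.9% of all listed genes), but 5 of the 14 were chosen for being higher. The exception was BX470102.3, whose span overlaps that of S100A6 on the other strand, with 69 reads over the DMSO libraries and 15 over the mitoxantrone libraries.

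**Figure D4:**
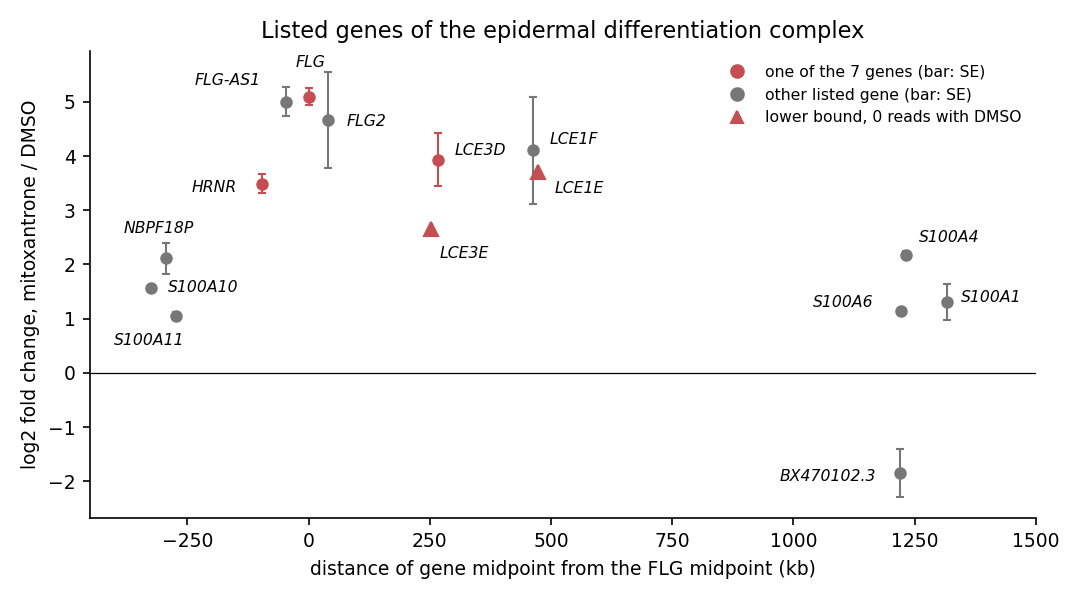
Fitted log2 fold change (vertical axis, bars 1 SE) of each listed gene of the complex. The horizontal axis is the distance of the gene's midpoint from that of FLG in kb. Triangles are lower bounds that take the mitoxantrone reads as free of error. The genes from HRNR to LCE1E lie above those of the S100 genes on either side (at most 2.18), and BX470102.3 is the single gene under 0.

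Of 21 genes that cross-link or scaffold the envelope 10 were listed and all 10 rose, beside 58.9% of all listed genes. Their median log2 fold change was 1.84, close to the 1.865 over all higher listed genes. TGM1, the membrane-bound transglutaminase of keratinocytes, rose 6.56-fold, from 6.77 ± 0.70 to 44.5 ± 4.41 normalized counts, and PADI3, a peptidylarginine deiminase that acts on filaggrin, 4.73-fold from 40.3 to 191. TGM2, the widely expressed transglutaminase, rose 2.57-fold to 23211 ± 1792. JUP, plakoglobin, rose 3.05-fold and the envelope scaffold gene PPL, periplakin, 2.15-fold.

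Genes of cell junctions and shedding, and of the lipid barrier, were mixed. Of 20 corneodesmosome and desquamation genes 5 were listed, 4 higher and 1 lower. DSC3, desmocollin 3, rose 7.76-fold from 54.0 ± 12.9 to 419 ± 54.8, while CTSV, a cysteine protease gene, fell by 1.89 on the log2 scale. Of 22 lipid barrier genes 7 were listed, 5 higher with ABCA12 among them and 2 lower. ABCA1, a cholesterol exporter, rose 5.08-fold from 477 ± 18.6 to 2424 ± 119. The lower genes were SULT2B1, a cholesterol sulfotransferase (log2 fold change -1.64 ± 0.11), and UGCG, which makes glucosylceramide, a lipid cargo of lamellar granules (-1.50 ± 0.10).

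LYNX1, another LY6/uPAR gene, lies 6.66 kb from LY6D on the same strand and was also higher. Its normalized counts rose 17.0-fold, from 56.7 ± 4.63 to 962 ± 41.2, with a log2 fold change of 4.08 ± 0.11. Of 27 genes of that family 5 were listed, 4 higher, LY6D among them, and 1 lower. LYPD3, expressed in squamous epithelium, went from 3.84 ± 1.11 to 12.5 ± 1.70, and LYPD1 fell by 1.06 on the log2 scale. ARC, 169 kb from LY6D, was higher at 2.18.

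Regulators of epidermal differentiation split. Of 37 in the list 14 were listed, 6 higher and 8 lower, where 58.9% of all listed genes were higher. The median of -1.105, against 1.20 over all listed genes, mainly restates that split, since no listed gene lies between -1 and 1. GRHL3, a Grainyhead-like factor required for the skin barrier, rose 18.9-fold from 12.7 ± 2.26 to 239.7 ± 29.2, and EHF, an epithelial ETS factor, 8.13-fold from 29.4 ± 10.48 to 239 ± 9.49. In the other direction PRDM1, known as BLIMP1, went from 961 ± 132 to 152 ± 9.82, with a log2 fold change of -2.66 ± 0.11. KLF4, TFAP2C, AHR, NFE2L2 and GRHL1 were also among the lower genes, and are named here with their values already known. GRHL1, a Grainyhead-like gene as GRHL3 is, had a log2 fold change of -1.13 ± 0.25.

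**Figure D5:**
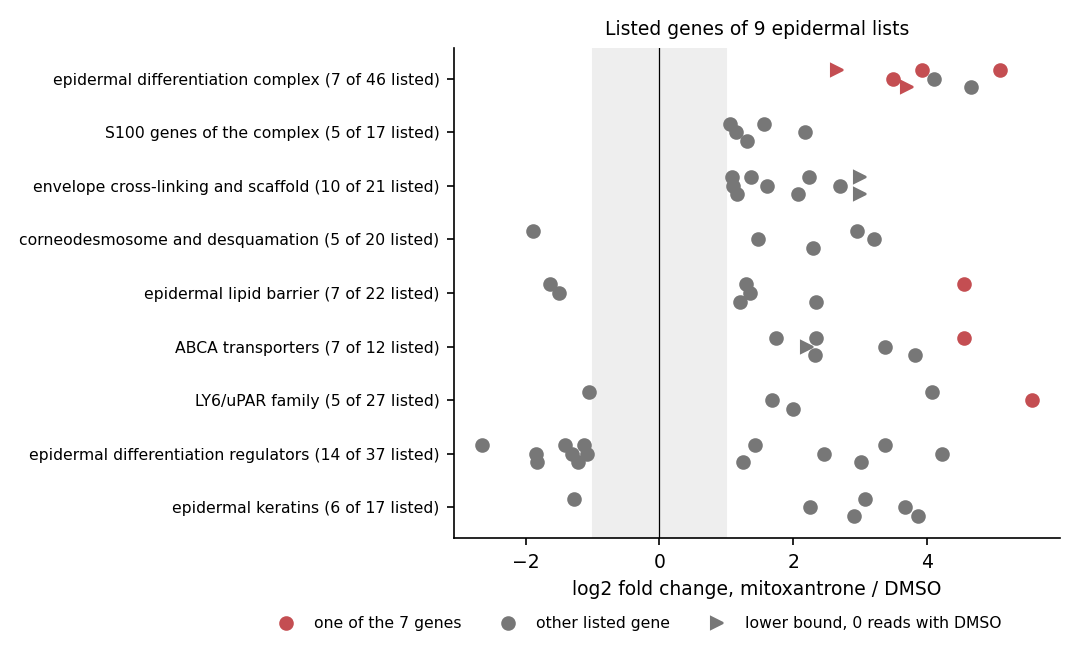
Log2 fold change (horizontal axis) of every listed gene of 9 lists (vertical axis), red for the 7 genes and grey for others. Triangles are lower bounds that take the mitoxantrone reads as free of error. The grey band from -1 to 1 is empty because the deposited table holds no gene there. Envelope, S100 and ABCA genes lie on the right, and regulators lie on both sides.

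The annotation terms in the deposited table group some of these genes. Keratinization was given to 10 listed genes, all higher, among them HRNR, ABCA12, LCE1E, LCE3D and LCE3E, which were chosen for being higher. Among all listed genes 58.9% were higher. The others with the term were LCE1F, TGM1, TGM3, PPL and CNFN, cornifelin, which rose 3.92-fold from 55.9 ± 14.3 to 219 ± 44.5. The term cornified envelope was given to 5, all higher, with HRNR as the one of the 7. Keratinocyte differentiation, the term that FLG carries, was given to 15 genes, of which 6 were higher and 9 lower. SFN, stratifin, rose 6.87-fold from 969.8 ± 87.5 to 6664 ± 347, and EREG, an EGF-family growth factor, fell by 3.11 on the log2 scale. LY6D carries none of these terms. The terms and the genes named from them were looked up after the values were known.

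Keratinocyte identity genes were nearly absent from the table, which does not mean that they were unchanged or not expressed. Of 9 markers (KRT5, KRT14, TP63, KRT1, KRT10, DSG1, DSG3, IVL and LOR) KRT5 alone was listed, with 0, 1 and 1 reads with DMSO and 8, 1 and 5 with mitoxantrone. Of 17 epidermal keratin genes 6 were listed, 5 higher and 1 lower. KRT15, a basal keratin, rose 8.43-fold from 14.2 ± 8.67 to 120 ± 14.6, KRT16 4.90-fold from 6.09 to 29.9, while KRT80 went down from 11508 to 4758 (log2 fold change -1.27).

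Markers of other cell types were also listed. The counts below stand beside 58.9% of all listed genes being higher. Leukocyte markers had 3 of 12 listed, all higher, with summed normalized counts of 41.8 to 56.9 with DMSO and 251.7 to 258 with mitoxantrone. Melanocyte markers had 3 of 7 listed, all higher, with sums of 15.8 to 20.7 and 50.0 to 65.3, and endothelial markers 3 of 5, all higher, with sums of 0 to 2.59 and 17.3 to 25.4. Of 8 fibroblast markers 2 were listed, 1 higher and 1 lower. SOX10, TYRP1 and TEK had 0 reads in every DMSO library, and PTPRC, the general leukocyte marker, TYR and PECAM1 were not listed. Their part in the levels of the 7 genes was not tested.

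The listed genes with the most similar profiles over the 6 libraries were found by the root mean square difference of log2(normalized count + 1), each gene centred on its own mean. For FLG they were NSG1 (0.25), PTAFR (0.26) and HES2 (0.26), and for HRNR AC137932.6 (0.12), RP11-674N23.1 (0.14) and THSD1 (0.14). For ABCA12 they were the heat shock gene HSPA1A (0.11), RELN (0.14) and GNGT2 (0.16), and for LY6D AC006262.5 (0.09), GNGT2 (0.20) and HES2 (0.21). LCE3D was closest to DOCK8 (0.09), COL17A1 (0.17) and IGFL2 (0.19), LCE1E to TREM2 (0.18), CPNE5 (0.20) and HPN (0.26), and LCE3E to SLC1A2 (0.11) and TLR4 (0.17). None of the 7 was among the 3 closest genes of another. COL17A1, which encodes a collagen of the hemidesmosome, rose 11.9-fold from 23.6 ± 6.83 to 280.3 ± 10.1. With 2 groups this measure mostly reflects the size of the difference between them.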

How the data were processed

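RNA of A549 cells was sequenced from 3 DMSO and 3 mitoxantrone libraries (paired reads of 150 bases). Per the submitters' processing notes the tools were HISAT2 (2.0.1), SAMtools (0.1.19), Cufflinks (2.2.1), HTSeq (0.6.1), cutadapt (1.9.1) and an unversioned DESeq2. For the build, counting mode and strand setting, the entry is: not given in the sources used here. Per the file headers, the authors deposited per gene and library an unscaled read count and an FPKM. The authors also deposited a mean normalized count (a signal: counts divided by size factors, averaged), a log2 fold change with its standard error, a score that is their ratio, and a p-value with its adjusted form. The table holds selected genes: the smallest absolute deposited log2 fold change is 1.00 and the largest adjusted p is 0.0497.

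Size factors were recovered from counts and deposited means (0.827 to 1.17; largest relative residual 1.6e-09), and library totals, 16681380 to 21781220 reads, from counts, lengths and FPKM where the latter reached 20. All listed genes were fitted with edgeR 4.0.16 (R 4.3.3; quasi-likelihood F-test, no filter, no covariate, Benjamini-Hochberg over 4546 genes); the fit was tested on simulated data. Alternatives were DESeq2 1.42.0, other scalings, a low-count filter, FPKM values, a replicate block and leaving out each library. The common biological coefficient of variation from edgeR, which leaves out counting error, was 6.68% over the listed genes. Floors are 3 counts per group. The 7 genes, the gene lists and the rules were chosen with earlier results of these data known. Named genes are the 7, the listed genes of the epidermal differentiation complex and S100 lists, the 4 largest changes of each other list with at least 10 normalized counts in the higher group, listed genes within 500 kb and the 3 closest profiles; a few more are named as examples, and some genes that the rule picks are not reported here. Promoters are RefSeq's; protein sequences were not used here.

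Deviations from the group means correlated at -0.07, -0.08 and 0.03 between libraries with the same number (2622 genes), so libraries were not treated as pairs.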

Additional observations from a re-analysis of the deposited data

How the results depend on the processing

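Alternatives to the scaling, the tool, the low-count filter, the prior count, the value (FPKM with a pseudocount) and the set of libraries gave 108 values of the 7 log2 fold changes. None changed sign, 91 moved by less than the spread between replicates and 17 by more. TMM on the listed genes moved all genes by -0.26 on the log2 scale, recovered library totals by -0.08 and column totals by -0.06, so ABCA12, with its small spread, went from 4.55 to 4.29, 4.465 and 4.485. A prior count of 2 lowered the genes with few reads: LY6D to 4.50, LCE3D to 3.04, LCE1E to 2.79 and LCE3E to 1.94. FPKM with a pseudocount of 0.1 gave 4.02 for FLG, 2.72 for HRNR and 4.09 for LY6D. With 1 library left out, FLG ranged from 4.87 to 5.24, HRNR from 3.38 to 3.68, LCE3D from 3.66 to 4.29, ABCA12 from 4.54 to 4.56 and LY6D from 5.36 to 5.70. The filter of 10 counts in 3 libraries left 3710 genes and kept 5 of the 7, so LCE1E and LCE3E have no value there. Counts of calls over all genes stayed within 1.5 times of 4546 under every alternative run, the lowest being 3664 in a test against a 2-fold change. The replicate block gave 4546 calls, 2677 of them higher, and log2 fold changes of 5.10 for FLG, 3.485 for HRNR, 3.94 for LCE3D, 4.55 for ABCA12 and 5.575 for LY6D. For LCE1E, LCE3E, LCE1F and FLG2 the number of reads limits precision.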

Other observations

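ABCA transporters, the family of ABCA12, were also listed as higher. Of 12 genes 7 were listed, and the 6 other than ABCA12 passed edgeR's quasi-likelihood test as higher, a call that 58.9% of all listed genes pass. ABCA13 had 3 reads in the DMSO group and 38 in the mitoxantrone group, a scaled ratio whose exact 95% limits, for counting error, are 5.08 and 81.1, and ABCA8 had 4 and 36. ABCA3, the lamellar body transporter of alveolar cells, was not listed.

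The listed genes nearest ABCA12 on chromosome 2 moved in opposite directions. BARD1, the partner of BRCA1, 122 kb away, fell from 488 ± 27.7 to 42.7 ± 14.2 normalized counts, and FN1, fibronectin, 222 kb away, rose 2.92-fold from 17265 ± 340.4 to 50455 ± 2273.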
